A study of Mus musculus with 15 samples.

Results

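The sperm tRNA fragments (tRFs) of the control lineage were described in 7 libraries of the 15 in the series: 3 of CO F0 males and 4 of CO F1 males. The members were all 47 anticodon entries of the deposited table, out of 215 entries in all. The others are 164 miRNAs and 4 entries for mature tRNAs. Each entry carries an amino acid and an anticodon, so GluCTC holds the fragments of the glutamate tRNAs with anticodon CTC. The question was how the baseline repertoire of sperm tRFs is composed, how its amino acids rank, and how far both differed between the generations when neither had received the obesity-inducing diet (OID).

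All males were C57BL/6 mice by the labels, and C57BL/6NTac by the methods. CO F0 males ate the control diet for 7 weeks, from 3 to 10 weeks of age, and were then mated. CO F1 males were male offspring of the control-fed F0 males and were on the control diet as well. The remaining 8 libraries came from 4 OID-fed F0 males and 4 of their male offspring. Mature sperm was taken from the caudal epididymis and washed in a buffer that lyses somatic cells, and RNA of 30 to 45 nucleotides was cut from a gel. The age at sperm collection, and which CO F1 male had which CO F0 male as its father, are not given in the sources used here. Generation, age, mating history and any library batch therefore cannot be told apart in these groups.

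Transfer RNAs are short, heavily modified RNAs that read codons through their anticodon and carry the matching amino acid to the ribosome. When they are cleaved in or near the anticodon loop, fragments are left that persist in the cell. In rodents, sperm takes up many such fragments during its passage through the epididymis, and fragments of glycine and glutamate tRNAs are known to be abundant there. Sperm tRFs are studied because they reach the egg at fertilization and have been linked to the father's diet.

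Depth set limits that differ between the males. CO F0 libraries held 341927, 271812 and 17966 tRF reads (replicates 1 to 3), and CO F1 libraries held 2675346, 35677, 992973 and 368510 (replicates 1 to 4). In CO F0 replicate 3, 28 of the 47 tRFs had at least 10 reads, against 36 in CO F1 replicate 2 and 45 or 46 in the other five. Each of the 47 had at least 1 read in 6 libraries, and CO F1 replicate 2 had no read of GlyACC, LeuTAA and SeCTCA. CO F0 replicate 3 also stands apart in composition, so group means of CO F0 are given with and without it where it decides them. Wilson intervals at 95% were used for single shares, and like the limit set by a count of 0 they cover counting error only.

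The label of mature sperm could be checked only weakly. Few miRNA reads pass a gel window above the length of a miRNA, and the miRNA and mature tRNA entries together held 72 to 1216 reads per library. The 3 miRNAs listed as sperm markers (mir-34c, mir-34b and mir-449a) summed to 0 reads in 5 of the 7 libraries, to 4 in CO F1 replicate 1 and to 1 in CO F1 replicate 3. Markers of smooth muscle and stroma summed to 9 to 22 reads in CO F0 and 5 to 16 in CO F1, those of epithelium to 1 to 10 and 1 to 15, and those of blood to 1 to 2 and 3 to 7. The liver marker mir-122 had 1 read in 1 library. These sums are not scaled to depth. Relative to tRF reads, smooth muscle and stroma markers were highest in CO F0 replicate 3, with 14 reads beside 17966 tRF reads. They had 5 beside 35677 in CO F1 replicate 2 and 9 beside 2675346 in CO F1 replicate 1. So few reads neither bear out nor contradict the label, and the part of other cells in the tRF values was not tested.

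Glutamate and glycine tRFs made up most of the repertoire in every male. As a share of all tRF reads of a library, glutamate tRFs (GluCTC and GluTTC) took 45.1% ± 17.99 (SD, n = 3) in CO F0 and 49.4% ± 2.35 (n = 4) in CO F1. Glycine tRFs (GlyGCC, GlyCCC, GlyTCC and GlyACC) took 39.0% ± 21.8 and 29.9% ± 1.35. Lysine followed with 3.12% ± 1.09 and 5.34% ± 1.49, and no other amino acid reached 3% in either group mean.

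**Figure D1:**
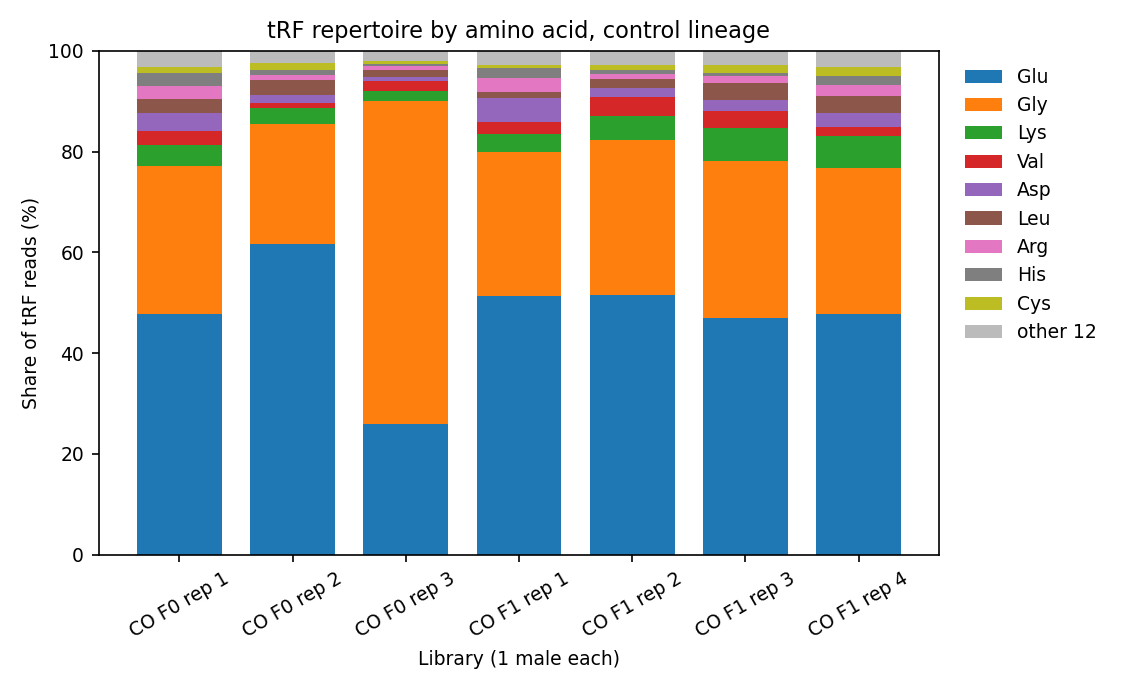
Each bar is 1 library (1 male) and shows, in percent of its tRF reads on the vertical axis, the 9 amino acids with the highest mean share and the other 12 together in grey. Glutamate is the largest block in 6 males, and in CO F0 replicate 3 glycine takes 64.0% and glutamate 26.0%.

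For glutamate and glycine, the fathers spread widely and the sons little. Glutamate was at 47.8%, 61.6% and 26.0% in CO F0 and at 51.3%, 51.5%, 46.96% and 47.8% in CO F1. Glycine was at 29.4%, 23.7% and 64.0% in CO F0 and at 28.6%, 30.9%, 31.2% and 28.8% in CO F1. The 4 sons lay within 5 percentage points of each other for both amino acids, while CO F0 replicate 3, the shallowest library, had the highest glycine and the lowest glutamate of all 7. Without it, the CO F0 means were 54.7% for glutamate and 26.6% for glycine, so the direction of both differences between the generations turned. Neither amino acid differed between the groups beyond this spread (two-sided exact permutation test, p = 0.686 for glutamate and 0.743 for glycine).

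The same contrast can be read from the leading tRFs. GluCTC, from tRNAs that read a glutamate codon, was at 43.8%, 57.7% and 24.8% in CO F0 and at 44.2%, 48.1%, 44.3% and 45.7% in CO F1. GlyGCC, from the main glycine tRNAs, was at 25.0%, 19.99% and 57.2% in CO F0 and at 22.9%, 26.4%, 25.8% and 23.2% in CO F1. In CO F0 replicate 3, the shallowest library, the interval of the GlyGCC share was 56.5% to 57.9%. The ratio of GluCTC to GlyGCC reads was 1.75, 2.88 and 0.433 in CO F0 and between 1.72 and 1.96 in all 4 CO F1 males. In the 8 libraries of the OID lineage it lay between 0.877 and 1.90, so the lowest and the highest ratio of the series were both in CO F0.

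GluCTC and GlyGCC together took 76.1% ± 6.75 of the reads in CO F0 and 70.2% ± 3.13 in CO F1. The joint share was 68.8%, 77.6% and 82.0% in CO F0 and 67.2%, 74.5%, 70.1% and 68.9% in CO F1. The groups overlapped, with a difference of -5.98 percentage points (exact permutation test, two-sided, p = 0.229; the smallest p that 3 against 4 males allow is 0.0571). It was -3.04 without CO F0 replicate 3 and -9.67 without CO F0 replicate 1. The 10 most abundant tRFs of each library took 93.5% ± 2.38 and 91.9% ± 1.25 of its reads.

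The evenness of the repertoire was given as an effective number of tRFs, the number of equally abundant tRFs that would have the same Shannon entropy. It was 7.24, 4.92 and 4.26 in CO F0 and 7.04, 5.89, 6.84 and 7.12 in CO F1. The means were 5.47 ± 1.56 and 6.72 ± 0.568, and the groups overlapped (exact permutation test, two-sided, p = 0.286). When each library was thinned to the 17966 reads of the shallowest, 43.7 to 44.6 tRFs were expected in the 6 other libraries and the shallowest had 47.

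Below the 3 leading amino acids the shares fell in small steps. Valine, aspartate, leucine, arginine, histidine and cysteine each held between 1.02% and 2.85% in both group means. Alanine, proline and methionine were at 0.635% and 0.730%, 0.525% and 0.550%, and 0.455% and 0.481% in CO F0 and CO F1. Asparagine, glutamine, serine, threonine and isoleucine lay between 0.0887% and 0.286%. Tryptophan (0.0495% and 0.0602%), tyrosine (0.0275% and 0.0274%) and phenylalanine (0.0172% and 0.0115%) were rarer, and selenocysteine was at 1 to 3 reads in the 6 libraries where it was found.

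**Figure D2:**
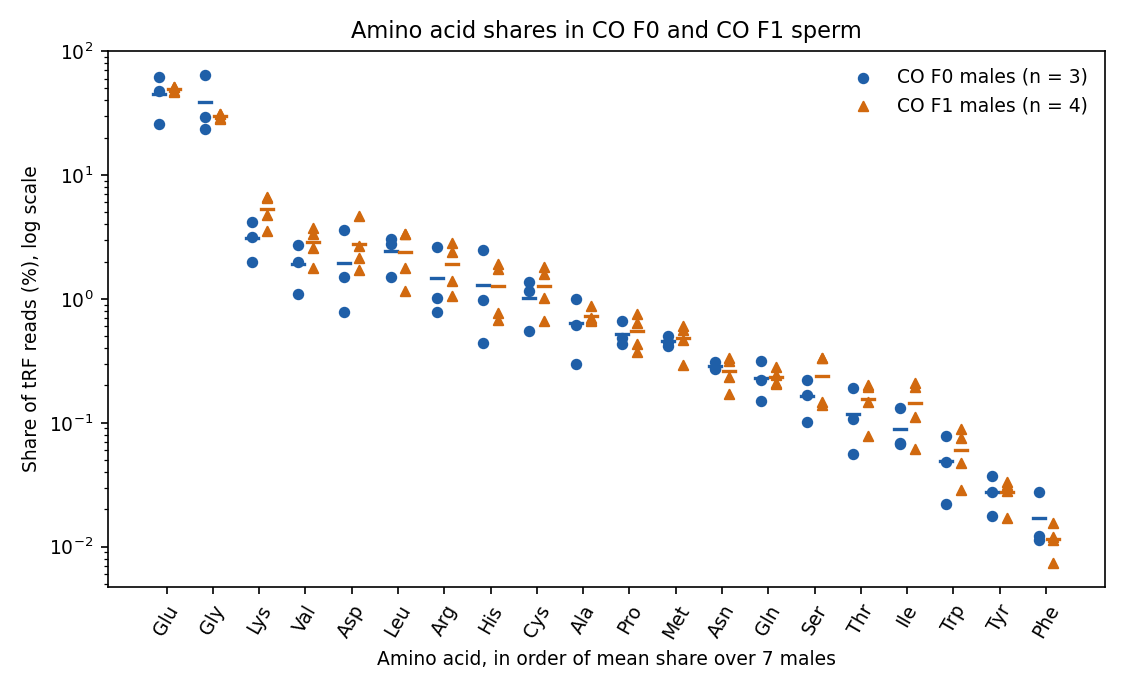
Share of tRF reads (percent, log axis) of 20 amino acids, in order of their mean over the 7 males, with a point for each CO F0 male (circles, n = 3) and CO F1 male (triangles, n = 4) and a line at each group mean. Selenocysteine, at 0 reads in CO F1 replicate 2, is left out, and the points of both generations overlap for every amino acid.

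The order of the amino acids was close to the same in both generations. Of 21 amino acids, 17 had the same rank in the 2 group means, and the largest change was of 2 places: leucine went from rank 4 to 6 and valine from 6 to 4, while glutamine and serine exchanged neighbouring ranks. Over the 21 group means Spearman's rho was 0.994, as a description. No amino acid had shares that did not overlap between the groups (0 of 21, percent called 0), and all adjusted p-values of the exact permutation tests were 1.

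Some neighbours in this order were separated in every male and others were not. In all 7 males glycine was above lysine, lysine above valine, arginine above histidine, methionine above asparagine, and phenylalanine above selenocysteine. Glutamate was above glycine, leucine above arginine, cysteine above alanine, alanine above proline, tryptophan above tyrosine, and tyrosine above phenylalanine in 6. Valine was above aspartate in 3 males, aspartate above leucine in 2 and histidine above cysteine in 2, so the order within these pairs is not resolved by 7 males.

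Lysine showed the lowest exact p among the amino acids (0.114 before adjustment). Its share was 4.18%, 3.19% and 2.00% in CO F0 and 3.51%, 4.75%, 6.62% and 6.48% in CO F1. Only CO F1 replicate 1 lay below the highest father. Without CO F1 replicate 1, the lysine shares no longer overlapped, the only amino acid of which this held (1 of 21). Without CO F0 replicate 1, 4 of 21 amino acids did not overlap (alanine, arginine, aspartate and lysine, all higher in CO F1). Without CO F1 replicate 4, only selenocysteine did not, and it rests on 3 reads or fewer per library.

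The anticodon that led each amino acid was also steady. Of the 12 amino acids with more than 1 anticodon, 10 had the same leading tRF in all 7 males: AlaAGC, ArgCCT, GlnCTG, GluCTC, GlyGCC, IleAAT, LysCTT, ProTGG, SerGCT and ValCAC. LeuCAG and ThrAGT led in 6. LeuCAG gave way in CO F1 replicate 1, where it had its lowest share, and ThrAGT in CO F0 replicate 3, where it rested on 3 reads.

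The split between anticodons of 1 amino acid varied to different degrees. GluCTC took 93.6% ± 1.96 of glutamate reads in CO F0 and 92.3% ± 4.18 in CO F1. The 3 proline tRFs held 35.5% ± 2.17 and 35.03% ± 4.23 (ProAGG), 19.6% ± 1.95 and 19.5% ± 2.64 (ProCGG), and 44.9% ± 4.096 and 45.5% ± 6.75 (ProTGG). Within leucine the spread was much wider, with LeuCAG at 73.6% ± 7.15 of leucine reads in CO F0 and 54.6% ± 21.9 in CO F1.

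Serine was the only amino acid in which the share of an anticodon did not overlap between the groups. SerAGA took 21.2% ± 3.47 of serine reads in CO F0 and 9.38% ± 2.19 in CO F1 (1 of 38 splits without overlap, percent called 2.63). The two-sided exact permutation test gave p = 0.0571, the smallest this design allows, and 0.931 after adjustment over the 38 splits tested. SerAGA had 7 reads in CO F0 replicate 3 and 6 in CO F1 replicate 2, so its share there is known only roughly. Of the other serine tRFs, SerGCT took 64.5% and 79.1%, SerTGA 9.06% and 7.39%, and SerCGA 5.22% and 4.14% of serine reads.

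Ranked one by one, the 47 tRFs kept nearly the same order. Between the group mean shares Spearman's rho was 0.991 over the 47 tRFs. The tRFs of a library share its depth and scaling, so the value is a description. The rank was the same for 16 tRFs and moved by at most 2 places for 39. SerAGA moved most, from rank 36 to 41. The 10 highest tRFs of each group had 9 in common, 10 tRFs were above 1% in both groups, and 18 were below 0.1% in both.

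Males of different generations were about as alike as males of 1 generation. Spearman's rho between the shares of 2 males lay between 0.949 and 0.978 within CO F0 (3 pairs), between 0.946 and 0.985 within CO F1 (6 pairs), and between 0.927 and 0.980 across the generations (12 pairs). The median coefficient of variation of a tRF's share was 42.1% in CO F0 and 37.4% in CO F1.

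**Figure D3:**
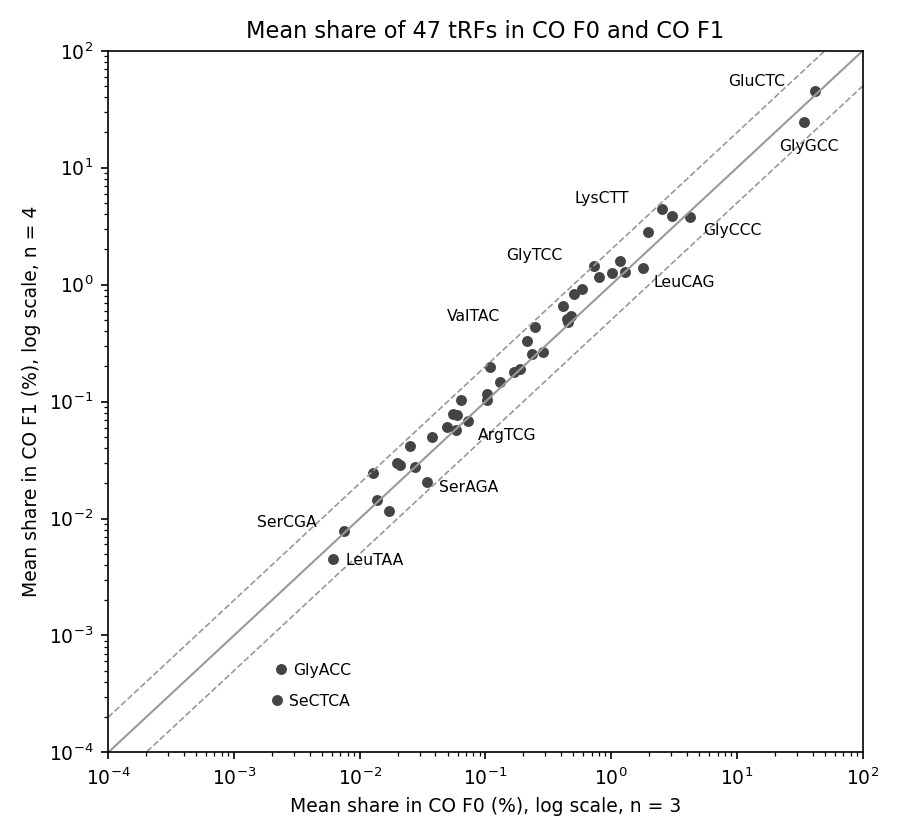
Mean share of each of the 47 tRFs (percent, log axes) in CO F0 (horizontal, n = 3) and CO F1 (vertical, n = 4), with the line of equality (solid) and of a 2-fold difference (dashed). The points follow the line over the whole range (rho 0.991), and GlyACC and SeCTCA, which lie farthest below it, had 4 reads or fewer in each CO F0 library.

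The comparison of normalized values found no tRF that differed between the generations. The values are reads divided by an amount per library, and differences are log2 of CO F1 against CO F0 after adding 1. At an adjusted p under 0.05 (limma, Benjamini-Hochberg over 47 tRFs), 0 of 47 were called in either direction (percent called 0), and the lowest adjusted p was 0.807. At an unadjusted p under 0.05, 1 of 47 was called (percent called 2.13), SeCTCA, the selenocysteine tRF, with 3 reads or fewer in each library. With the replicate number as a block, SeCTCA was called (1 of 47, percent called 2.13, adjusted p = 0.00626). No fold is given for it, since its reads were 1, 2 and 1 in CO F0 and 3, 0, 2 and 3 in CO F1 and a read in CO F0 replicate 3 is worth 48.2 normalized units against 0.259 in CO F1 replicate 1.

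The absence of calls does not show that levels were equal. The 95% interval of the difference reached a median of 1.012 log2 units to either side, about a 2-fold difference, with a range of 0.804 to 2.04. It lay wholly within a 2-fold difference for 6 of 47 tRFs: ArgACG, ArgCCG, GlnCTG, GlnTTG, GluCTC and MetCAT. That count is not stable: it was 0 without CO F0 replicate 1, CO F0 replicate 2 or CO F1 replicate 3, and 16 with log2 depth as a covariate. The estimates themselves were under 1 log2 unit in 44 and under 0.5 in 31, and smaller than the pooled SD of the males in 38.

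**Figure D4:**
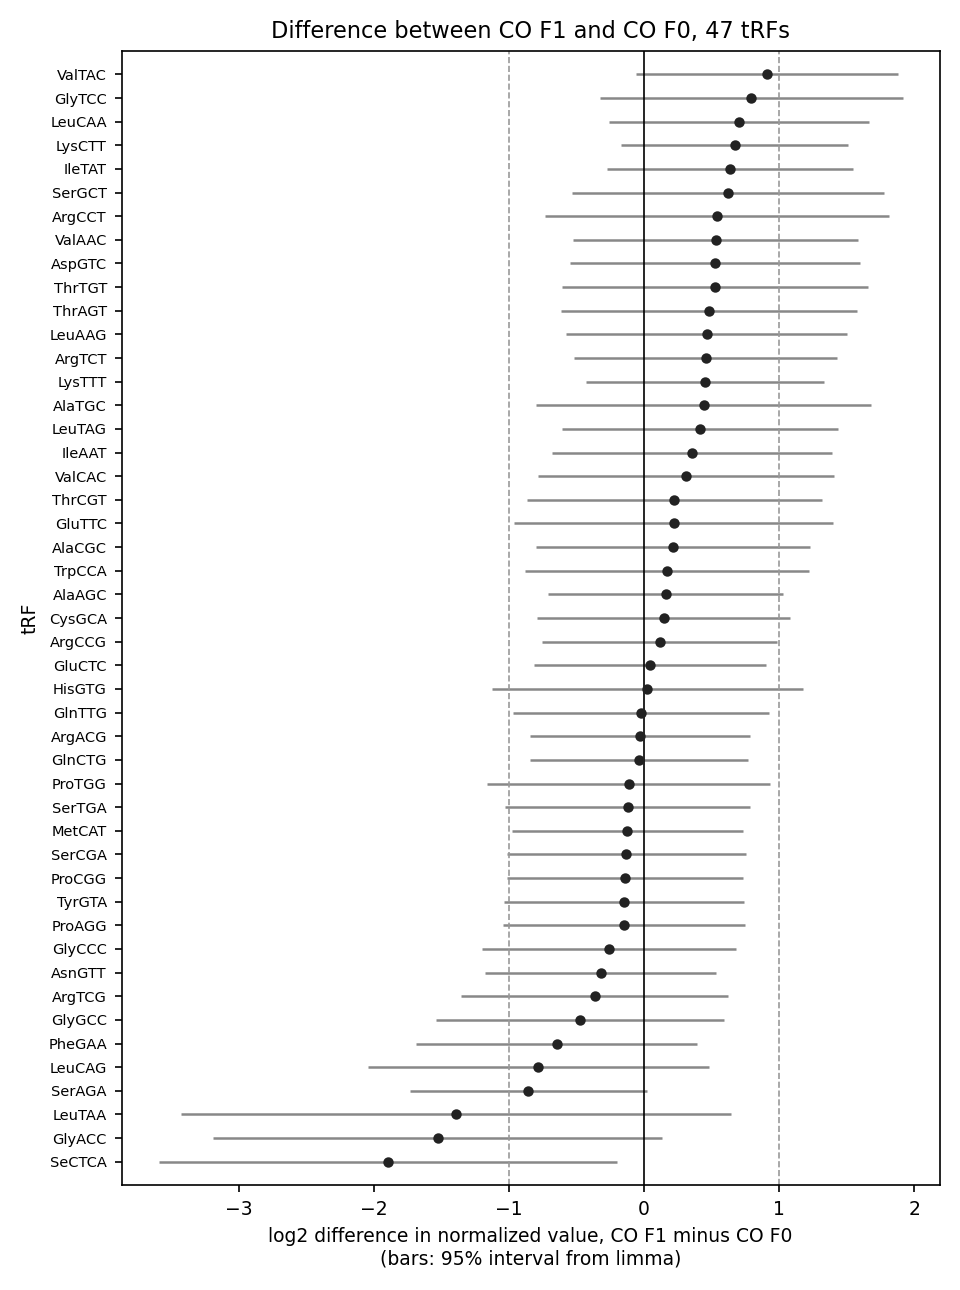
Difference in log2(normalized value + 1) between CO F1 (n = 4) and CO F0 (n = 3) for each of the 47 tRFs (points) with its 95% interval from limma (bars), with dashed lines at a 2-fold difference. All intervals but that of SeCTCA, which had 3 reads or fewer per library, include 0, and most cross at least 1 dashed line.

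Mean values were higher in CO F1 for 27 tRFs and lower for 20, with a median difference of 0.15. This balance depended on the scaling: with libraries rescaled to the same tRF sum the median was 0.30, and with GlyGCC and GluCTC left out of the sum it was -0.05. A change of scaling shifts the tRFs together. Without CO F0 replicate 3 the median was also -0.05, with single tRFs moving in both directions.

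Among the most abundant tRFs, GluCTC differed by 0.04 (SE 0.40, adjusted p = 0.968) and HisGTG, from the histidine tRNA, by 0.02 (SE 0.53, adjusted p = 0.968), with signs that changed under other settings. GlyGCC was at 134683, 140313 and 495177 normalized units in CO F0 and at 158654, 176749, 161616 and 117002 in CO F1. CO F0 replicate 3 was more than 2-fold above every other control-lineage male, while OID F0 replicates 2 and 4 were at 402717 and 386389. The difference between the control groups was -0.47 (SE 0.49, adjusted p = 0.840) with CO F0 replicate 3 and 0.14 without it. GlyCCC, whose share was among the 5 steadiest over the 7 males, was at 3.45%, 3.37% and 5.94% in CO F0 and 3.53%, 3.87%, 4.08% and 3.81% in CO F1, and its value differed by -0.26 (SE 0.43). Without CO F0 replicate 3 that difference was 0.17, and the share was then higher in every son than in both other fathers. Without that library, the shares of 3 of 47 tRFs did not overlap between the groups, GlyCCC among them.

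LysCTT and SerAGA were the 2 tRFs whose normalized values did not overlap between the groups (percent called 4.26 of 47; 2.13 in each direction). LysCTT, the main lysine tRF, was at 18958, 17842 and 13490 in CO F0 and at 20736, 23720, 35491 and 27827 in CO F1. Every son was above every father, by 0.67 on the log2 scale (SE 0.39, adjusted p = 0.840). SerAGA was at 221, 155 and 338 in CO F0 and at 106, 113, 149 and 134 in CO F1, lower in every son, with a difference of -0.86 (SE 0.41, adjusted p = 0.807) that was -0.57 without CO F0 replicate 3. As shares of tRF reads no tRF was without overlap (0 of 47, percent called 0). The sign of these 2 differences was the same under all 19 alternatives run.

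ValTAC had the highest difference of all 47 tRFs. It comes from a valine tRNA, and was at 2493, 1186 and 916 in CO F0 and at 3652, 2083, 2869 and 2162 in CO F1. The difference was 0.91 (SE 0.45, adjusted p = 0.807). CO F0 replicate 1 overlapped with the sons and the other 2 fathers lay below all of them. This was not particular to ValTAC: without CO F0 replicate 1, the shares of 8 of 47 tRFs were higher in every son. ValCAC and ValAAC, the more abundant valine tRFs, differed by 0.31 and 0.53, and ValCAC by -0.09 without CO F0 replicate 2.

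GlyTCC, SerGCT and ArgCCT completed the 5 highest differences among the 28 tRFs with at least 10 reads in each of the 7 libraries. GlyTCC, a minor glycine tRF, was at 5253, 2622 and 7227 in CO F0 and at 14607, 3866, 8162 and 9041 in CO F1 (0.79, SE 0.52). SerGCT was at 535, 427 and 1446 in CO F0 and at 754, 639, 1847 and 1431 in CO F1 (0.62, SE 0.53). ArgCCT was at 9092, 2914 and 2747 in CO F0 and at 13876, 2834, 4881 and 7059 in CO F1 (0.54, SE 0.59). The groups overlapped in each, and the adjusted p was 0.840. These differences hung on single libraries. That of ArgCCT was 0.14 without CO F1 replicate 1, 0.28 without CO F0 replicate 2, 0.24 without CO F0 replicate 3 and 1.10 without CO F0 replicate 1, and 0.00016 with log2 depth as a covariate. GlyTCC was lowest without CO F0 replicate 2 (0.38), and SerGCT ranged from 0.27 without CO F0 replicate 2 to 1.15 without CO F0 replicate 3.

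At the other end were LeuCAG, GlyGCC, ArgTCG, AsnGTT and GlyCCC. LeuCAG, the leading leucine tRF, was at 9812, 16874 and 9877 in CO F0 and at 2030, 9252, 11464 and 10176 in CO F1. The difference of -0.78 (SE 0.58, adjusted p = 0.840) went to -0.20 without CO F1 replicate 1, the deepest library, which was more than 4-fold below the other sons. ArgTCG was at 335, 582 and 627 in CO F0 and at 242, 657, 300 and 456 in CO F1, a difference of -0.37 (SE 0.46). AsnGTT, from the asparagine tRNA, was at 1657, 1956 and 2361 in CO F0 and at 1176, 2252, 1464 and 1587 in CO F1, a difference of -0.32 (SE 0.39). Without CO F1 replicate 1 these 2 differences were -0.15 and -0.18, and with log2 depth as a covariate that of ArgTCG was 0.01.

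Of the tRFs above 1%, 3 remain. AspGTC, from the aspartate tRNA, was at 19375, 10484 and 6842 in CO F0 and at 32367, 11372, 13388 and 13455 in CO F1 (0.52, SE 0.50). CysGCA, from the cysteine tRNA, was at 6234, 9544 and 4770 in CO F0 and at 4593, 6756, 9959 and 9063 in CO F1 (0.15, SE 0.43). GluTTC, the minor glutamate tRF, was at 21622, 27946 and 10070 in CO F0 and at 49042, 22688, 16716 and 10934 in CO F1 (0.22, SE 0.55). In all 3, males of 1 group differed more than the group means did. Without CO F1 replicate 1 the differences were 0.19, 0.37 and -0.18, and without CO F0 replicate 3 they were 0.17, -0.08 and -0.21.

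The 5 tRFs with the smallest SD of log2 share over the 7 males, among those with at least 10 reads in each, were GlyCCC, ProCGG, GlnCTG, ProAGG and MetCAT. MetCAT holds methionine tRNAs, with initiator and elongator forms not told apart, and took 0.455% ± 0.0406 and 0.481% ± 0.136. The highest of the 7 shares exceeded the lowest 1.76-fold for GlyCCC, 1.74-fold for ProCGG, 1.89-fold for GlnCTG, 1.82-fold for ProAGG and 2.04-fold for MetCAT. Their normalized values differed by -0.04 (GlnCTG, SE 0.37), -0.12 (MetCAT, SE 0.40), -0.15 (ProAGG, SE 0.41) and -0.14 (ProCGG, SE 0.40), with adjusted p-values of 0.895 to 0.968. For LeuCAG, ArgCCT, GluTTC and AspGTC the same ratio was 8.20, 6.32, 6.09 and 5.91.

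The remaining tRFs were described by their group means. LysTTT (0.582% and 0.911% in CO F0 and CO F1), ValAAC (0.510% and 0.836%), AlaAGC (0.477% and 0.536%), ArgCCG (0.447% and 0.508%), LeuAAG (0.412% and 0.663%), ProTGG (0.235% and 0.258%), LeuTAG (0.214% and 0.333%) and ArgACG (0.131% and 0.148%) lay above 0.1%. The value of ArgCCG differed by 0.11 (SE 0.40, adjusted p = 0.895). AlaCGC, IleAAT, ThrAGT, AlaTGC, TrpCCA, GlnTTG and ThrCGT lay between 0.0377% and 0.116%. TyrGTA, IleTAT, ThrTGT, ArgTCT, LeuCAA, PheGAA and SerTGA lay between 0.0115% and 0.0416%. Each of these had fewer than 10 reads in CO F0 replicate 3, from AlaCGC on, so their values there move by large steps.

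The 4 rarest tRFs were SerCGA, LeuTAA, GlyACC and SeCTCA. SerCGA was at 0.00755% ± 0.00190 in CO F0 and 0.00782% ± 0.00269 in CO F1, with 1 read in CO F0 replicate 3 and 4 in CO F1 replicate 2, and its value differed by -0.13 (SE 0.41, adjusted p = 0.895). LeuTAA had 20, 19 and 1 reads in CO F0 and 115, 0, 67 and 26 in CO F1. GlyACC had 4, 1 and 1 reads in CO F0 and 19, 0, 8 and 2 in CO F1. In CO F1 replicate 2, a count of 0 allows a share of up to 0.00841%. That is above the mean share of LeuTAA, GlyACC and SeCTCA in both groups, so the count does not show that they were absent there.

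Grouped by the first base of the anticodon, tRFs with C took 54.0% ± 16.4 of reads in CO F0 and 59.5% ± 2.40 in CO F1. Those with G took 38.8% ± 18.4 and 30.4% ± 0.270, those with T 5.33% ± 2.05 and 7.53% ± 2.46, and those with A 1.88% ± 0.691 and 2.57% ± 0.279. Anticodons that start with G and T (AspGTC, AsnGTT, HisGTG and TyrGTA) carry the modified base queuosine at that position. Of these 4, 0 were called, 2 had a higher and 2 a lower mean in CO F1, with a median difference of -0.06 against 0.15 over all 47. In most tRNAs whose gene starts the anticodon with A, that base becomes inosine. Of these 9, 0 were called, 5 had a higher and 4 a lower mean, with a median of 0.16.

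By amino acid, all tRFs of valine (3), lysine (2) and isoleucine (2) had a higher mean log2 value in CO F1, under each of the 3 other scalings and without CO F0 replicate 3 as well, while ValCAC was lower (-0.09) without CO F0 replicate 2. All tRFs of alanine (3), threonine (3) and glutamate (2) were also higher in the mean, but AlaAGC and GluCTC turned lower when libraries were scaled without GlyGCC and GluCTC, GluCTC also with median of ratios scaling, and 2 alanine, 2 threonine and 2 glutamate tRFs turned lower without CO F0 replicate 3. All of proline (3) and glutamine (2) were lower in the mean and turned higher with libraries rescaled to the same tRF sum. None of these tRFs was called.

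The shares were set against the number of tRNA genes. In the RefSeq annotation of GRCm38, 400 nuclear tRNA loci matched 46 of the 47 anticodons by their symbols (all but SeCTCA). Of these loci, 105 lie on chromosome 13. Across these 46 anticodons, Spearman's rho of share and number of loci was 0.523 in CO F0 and 0.502 in CO F1, and 0.503 and 0.484 without CysGCA, which has 56 loci. These are descriptions across anticodons that share libraries. CysGCA, with the most loci, took 1.16% of reads on average, while GluCTC with 12 loci took 44.1% and GlyGCC with 14 took 28.6%. Per locus, GluCTC was at 3.67% and GlyGCC at 2.05%, followed by GlyCCC at 0.668%, GluTTC at 0.437% and LysTTT at 0.385%. The value of LysTTT rests on 2 loci assigned by their symbols, a count that may be too low.

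In this annotation, where loci are assigned by their symbols, a few anticodons have so few that their position can be given. LysTTT has 2, at chr13:21907940-21908012 and chr13:21971788-21971860, where GENCODE M21 lists no gene. Their symbols, n-TKttt22 and n-TKttt23, belong to the same number series as those of LysCTT. Whether loci named LysCTT belong with LysTTT was not tested, so the count for LysTTT may be too low. IleTAT has 1, at chr13:21896938-21897031, which overlaps the exon of the miRNA gene Mir1983. The annotated length of 94 bases is that of the whole tRNA gene. Loci named IleAAT are 73 to 96 bases long, and n-TIaat15, n-TIaat16 and n-TIaat17 among them have 96, 95 and 93 bases. Whether these belong with IleTAT was not tested, so its count of loci may be too low. GlyACC has 1 locus, at chr11:48823728-48823801, outside any GENCODE M21 gene. According to the methods, reads that fit several tRNA genes were weighted by alignment score. The recovered tRF values were all whole reads, so such weights could not be traced in them. The split between tRFs of near-identical tRNAs is therefore uncertain.

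Males with the same replicate number resembled each other in how they deviated from their group means. Across the 47 tRFs, the deviations (log2) correlated with Pearson's r of 0.53 for the males numbered 1, 0.20 for those numbered 2 and 0.25 for those numbered 3. Pairs with different numbers gave values between -0.26 and 0.12. Within a group the deviations of a tRF cancel out, so positive values for some pairs force negative values for others. The gap between same-numbered and other pairs is therefore partly built in. For CO F0 replicate 2, r was 0.20 with CO F1 replicate 2 and 0.10 with CO F1 replicate 4. The tRFs of a library share its depth and scaling, and no source used here states a kinship between same-numbered males. Both males numbered 1 had the deepest library of their group. With depth as a term, r was 0.107, 0.507 and 0.426. Pairs with different numbers were not computed with this term, so these values cannot be set against them.

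**Figure D5:**
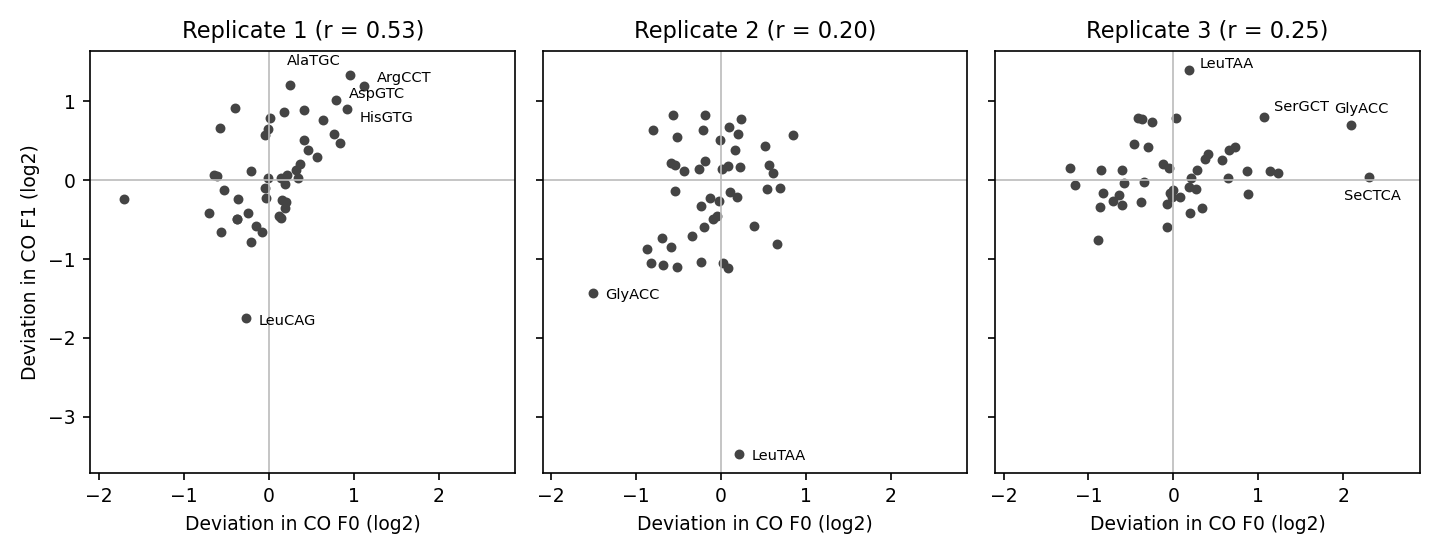
Deviation of each of the 47 tRFs from its group mean (log2) in the CO F0 male (horizontal) and the CO F1 male (vertical) with the same replicate number, 1 panel per number, with r as a description. AspGTC, HisGTG, ArgCCT and AlaTGC lie to the upper right in the panel of replicate 1, and LeuTAA at the bottom of the panel of replicate 2 had 0 reads in that CO F1 male.

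In both males numbered 1, 6 tRFs exceeded the group mean by more than 0.5 log2 units: AspGTC, HisGTG, ArgCCT, AlaTGC, AlaCGC and ThrAGT, chosen after their values were seen and not tested. AspGTC took 3.59% of reads in CO F0 replicate 1 and 4.67% in CO F1 replicate 1, against 0.790% to 2.67% in the other five males. ArgCCT took 1.69% and 2.00%, against 0.317% to 1.40%. Over all 47 tRFs, both deviations were above 0 for 19, both below 0 for 14 and opposite for 14.

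The difference between the generations in the control lineage was compared with that in the OID lineage in a fit over all 15 libraries. For the interaction, 0 of 47 tRFs were called at an adjusted p under 0.05 (limma, percent called 0, lowest adjusted p = 0.657), and 2 of 47 at an unadjusted p under 0.05 (percent called 4.26). A difference between the lineages in how the generations differ was therefore not detected for any tRF with these group sizes.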

How the data were processed

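Small RNA from sperm of 15 mice had been sequenced, of which the 7 control-lineage libraries were used. According to the methods, 100 ng of RNA per library was used, reads were trimmed with Trimmomatic, aligned to GRCm38, annotated as tRNA with blastn and weighted by alignment score. The submitters' processing notes name Bowtie2 2.3.4.1 and DESeq2. The deposited values are a normalized signal: by their steps, the authors divided the reads by an amount per library and added 0.5. The amount differed for miRNA and mature tRNA entries, so values were compared only among the 47 tRFs. The methods call the values TPM, but 1 library sums to more than TPM can, so they were not treated as such. Reads were recovered from the steps (all 705 tRF values whole within 0.001). Depth was 17966 to 2675346 tRF reads per control library, and reads were not counted as molecules, as no molecular identifiers are stated.

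Differences were fitted with limma 3.58.1 in R 4.3.3 on log2(value + 1), which understates changes of low tRFs, over the 7 libraries. Benjamini-Hochberg adjustment was over 47 tRFs. Shares are percent of recovered tRF reads and were tested by exact permutation of libraries, two-sided, in scipy 1.17.1. They were not divided by length, since the fragments were cut to 1 length window. The scripts were tested on simulated data.

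Group and replicate number came from the labels. Deviations of same-numbered males correlated at 0.530, 0.196 and 0.251, each of these 6 libraries best with its own number. CO F1 replicate 4 has no counterpart. The fits and tests reported are unpaired, and the replicate number as a block was an alternative, whose pairing rests on the data only. Nothing says which males came from separate litters or cages, so p-values measure the spread between these samples.

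Full statistics were given for the 10 tRFs with the highest share, the 5 highest and 5 lowest differences and the 5 smallest SDs among the 28 tRFs that had 10 or more reads in each of the 7 libraries, tRFs without overlap, and ValTAC, SerCGA, ArgCCG, ArgTCG and SeCTCA, which the study names and chose on these samples. The members, lists and alternatives were chosen with earlier results of these data known. Loci were taken from RefSeq (GRCm38.p6), leaving out 5 entries with positions that are not those of the primary chromosome. Sequences of the tRFs were not used here, so anticodons with shared sequence were not grouped.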

Additional observations from a re-analysis of the deposited data

Results flagged for a closer look

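In 6 of 76 sets of 4 CO F1 values tested (47 tRFs and other measures), 1 male lay far from the other 3, with a gap to its neighbour that exceeded the critical value of Dixon's test for 4 values. Chance alone gives about 3.8 such sets. CO F1 replicate 1 was high for AspGTC (gap 0.839 of the range) and for the alanine share (0.838), and low for LeuCAG (0.876) and PheGAA (0.911). CO F1 replicate 2 was high for ArgTCT (0.879, from 14 reads) and low for LeuTAA (0.9002), where it had 0 reads. These 2 libraries were the deepest and the shallowest of CO F1, and the part of depth in these values was not tested.

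The 4 mature tRNA entries lie outside the comparisons. Their highest read count in a library was 21 for HisATG_mature, 8 for SerGGA_mature, 5 for IleGAT_mature and 4 for SupTTA_mature, each in CO F1 replicate 1, the deepest library.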

How the results depend on the processing

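The count of called tRFs was 0 under every alternative run except 2. It was 1 with the replicate block (SeCTCA, adjusted p = 0.00626, range of the lowest adjusted p over the other alternatives 0.0741 to 0.891) and 1 when p was left unadjusted. The interaction gave 2 when p was left unadjusted. At an unadjusted p the replicate block gave 5 tRFs. SeCTCA was also closest to a call without CO F0 replicate 1 (adjusted p = 0.0741). Limma-voom on recovered reads gave 0 calls and 3 at an unadjusted p. The count of tRFs with an interval within a 2-fold difference (6) moved most: 3 with the same tRF sum or without GlyGCC and GluCTC, 13 with all 4 groups in 1 fit or with libraries of at least 100000 reads, 16 with depth as a covariate, 9 with the replicate block, 0 with Bonferroni intervals, and 0 to 8 with 1 library left out (0 without CO F0 replicate 1, CO F0 replicate 2 or CO F1 replicate 3, 2 without CO F1 replicate 4 and 3 without CO F1 replicate 2). The cause was not tested. The count of amino acids without overlap was 0 to 4 with 1 library left out. The rank correlation of tRF shares stayed between 0.983 and 0.992 and the joint share difference between -9.67 and -3.04 percentage points. The difference in effective number stayed between 0.640 and 2.13. With the inverse Simpson index in place of the Shannon entropy, it was 0.623. Of 453 differences of the 24 named tRFs under 19 alternatives, 51 changed sign, and 10 of the tRFs had none. Negative binomial count models on the recovered reads, and the grouping of anticodons by shared sequence, were not run. Depth limits the 19 tRFs with fewer than 10 reads in at least 1 library.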
